A study of Mus musculus with 42 samples.

Results

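The whole epithelium libraries of the study are its inputs: total RNA from the homogenate of the main olfactory epithelium, taken before ribosomes carrying phosphorylated S6 were pulled down. They make up 21 of the 42 libraries of the series, and all genes of these 21 were compared between any odour and none. Each library comes from 4 pooled epithelia of male C57BL/6NCrl mice aged 8 to 12 weeks that spent 1 h with an odour or without one. The 16 libraries with odour comprise 6 with the odour of normal chow diet (NCD), 5 with bacon odour, from a chow flavoured with bacon and otherwise of the same composition, and 5 with the odour of a lard-based high-fat diet (HFD). The remaining 5 had no odour and carry the numbers 1, 2, 3, 4 and 6. The labels give no allele or drug for any group, and because epithelia were pooled the spread between single animals cannot be seen. Levels are given as CPM, a gene's share of the counts outside ribosomal RNA scaled by TMM normalization, differences as log2 fold changes against no odour, and a change was called at an adjusted p under 0.001.

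The main olfactory epithelium holds olfactory sensory neurons, each of which expresses a single odorant receptor gene, together with supporting cells, basal stem cells, glands and, at its base, glia and bone. Odorants open a cyclic nucleotide-gated channel through a G protein and an adenylyl cyclase, and the calcium that enters activates kinases and the transcription factor CREB. CREB and its partners switch on immediate early genes such as Fos, Egr1 and Nr4a1 within minutes, which is why these transcripts serve as markers of recent activity. Sensory neurons also tune slower genes to their activity, among them adhesion molecules that sort axons. Whole tissue RNA mixes all of these cells, so a change confined to the neurons that an odour activates is diluted by the rest.

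Among the genes that rose are several whose promoters carry the core of the cAMP response element, the site that CREB binds. The 250 bases before the start of 4 of them are shown because they carry the letters searched for, TGACG on either strand (CGTCA on the other), in capitals. The sequences are from RefSeq on GRCm38.p6 and run 5′ to 3′ on the strand of the gene, at chr12:85473640-85473889 (plus strand) for Fos and chr7:19310046-19310295 (minus) for Fosb. The others lie at chr15:101266596-101266845 (plus, a start site inside the longer gene model of the annotation) for Nr4a1 and chr2:57124004-57124253 (minus) for Nr4a2.
Fos: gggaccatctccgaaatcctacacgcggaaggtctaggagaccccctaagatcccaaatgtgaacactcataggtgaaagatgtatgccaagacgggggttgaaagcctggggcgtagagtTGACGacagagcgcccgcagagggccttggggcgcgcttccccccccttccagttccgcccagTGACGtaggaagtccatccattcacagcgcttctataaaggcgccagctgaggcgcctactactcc
Fosb: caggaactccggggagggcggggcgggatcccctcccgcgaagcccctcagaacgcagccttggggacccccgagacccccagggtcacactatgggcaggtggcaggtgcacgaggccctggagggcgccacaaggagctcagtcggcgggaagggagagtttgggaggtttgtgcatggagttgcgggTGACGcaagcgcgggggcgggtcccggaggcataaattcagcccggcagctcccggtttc
Nr4a1: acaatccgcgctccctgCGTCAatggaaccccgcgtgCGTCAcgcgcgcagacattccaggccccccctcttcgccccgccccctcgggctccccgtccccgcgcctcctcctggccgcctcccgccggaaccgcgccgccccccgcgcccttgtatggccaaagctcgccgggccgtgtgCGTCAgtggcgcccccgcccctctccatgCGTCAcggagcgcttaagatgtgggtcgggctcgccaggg
Nr4a2: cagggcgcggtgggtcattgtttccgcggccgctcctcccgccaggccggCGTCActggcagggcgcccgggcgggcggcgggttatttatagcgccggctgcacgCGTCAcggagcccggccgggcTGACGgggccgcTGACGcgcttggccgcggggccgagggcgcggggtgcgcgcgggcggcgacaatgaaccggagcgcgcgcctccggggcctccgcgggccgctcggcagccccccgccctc
The core occurs 2 times in the Fos window, 1 time in that of Fosb and 4 times in each of the others. Over all 27025 genes with such a window, tested here or not, 19.8% hold it. Among the 51 that rose under each of the 3 odours, 13 of the 39 genes with a window do (33.3%). These shares are over unlike sets of genes, and the share over the tested genes alone was not taken. Of the immediate early genes with a window, 5 of the 6 that rose hold it, as do 15 of the 23 that were not called (65.2%). The full palindrome TGACGTCA, which contains the core on both strands, stands in 1.77% of the 27025 genes and in 4 of the 39 (10.3%). A match describes the letters in these windows only, and no binding was measured here.

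The 21 libraries held 24839555 to 36781553 counts each, and markers of the tissue were abundant in both groups. Omp, the olfactory marker protein of mature sensory neurons, averaged 8606 CPM without odour and 7096 with odour, Cnga2, a subunit of the transduction channel, 351 and 369, and Cyp2g1, a cytochrome P450 of supporting cells, 4244 and 4782. The make-up of the libraries differed between the groups before any gene was compared. Ribosomal RNA took 24.7% ± 3.62 of all counts without odour (SD, n = 5, range 19.2 to 28.1) and 12.995% ± 2.80 with odour (SD, n = 16, range 9.38 to 18.9). The groups did not overlap (exact permutation of the 21 libraries, two-sided p = 4.9e-05, the smallest it can give). This share includes the mitochondrial ribosomal RNAs mt-Rnr2 and mt-Rnr1, with means of 6.13% and 2.71% of input counts. The largest nuclear entry, CT010467.1, took 5.41%, so the ribosomal RNA share is in part a measure of mitochondrial RNA. Messages encoded by mitochondrial DNA took 1.73% ± 0.198 of the other counts without odour (SD, n = 5, range 1.48 to 1.93) and 1.11% ± 0.127 with odour (SD, n = 16, range 0.935 to 1.45; exact permutation, p = 4.9e-05). Both shares were lower under each odour, ribosomal RNA by a difference of -10.5, -14.1 and -10.8 percentage points under NCD, bacon and HFD odour (exact permutation tests, p = 0.0022, 0.0079 and 0.0079, the smallest each can give).

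**Figure D1:**
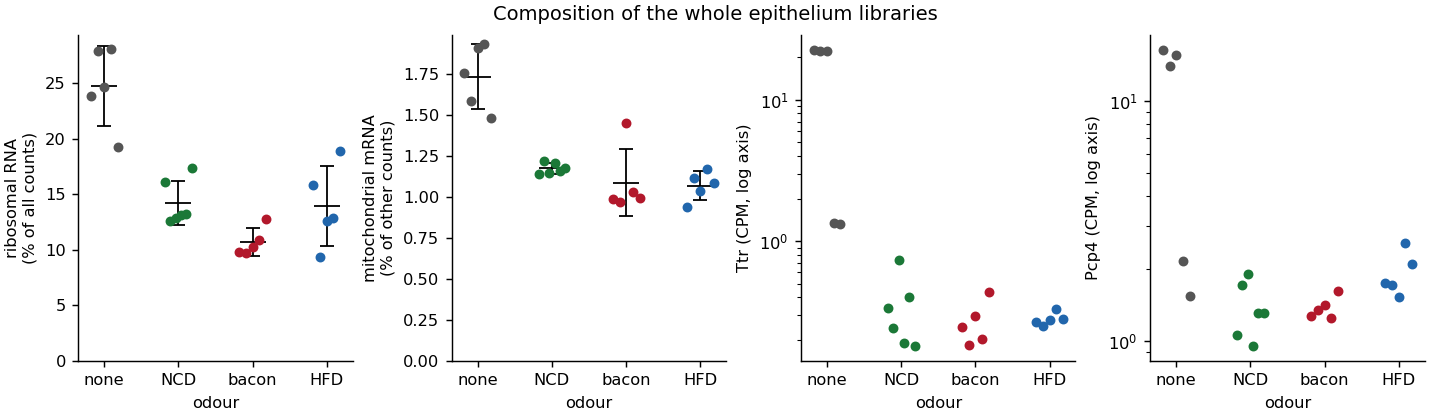
Composition of the 21 whole epithelium libraries by odour: percent of all counts on ribosomal RNA, nuclear and mitochondrial, and percent of other counts on mitochondrially encoded messages (points are libraries, bars the mean and SD). CPM of Ttr and Pcp4, without TMM scaling, are on log axes. All 5 libraries without odour lie above the 16 with odour in the first 3 panels, and 3 of the 5 stand far above the rest for Ttr and Pcp4.

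The libraries without odour were also not of one kind. Ttr, the thyroid hormone carrier made by the choroid plexus, stood at 22.98, 23.14 and 22.75 CPM in no odour 1, 2 and 3 and at 1.44 and 1.31 CPM in no odour 4 and 6. It was between 0.18 and 0.74 CPM in the 16 libraries with odour. Pcp4, a calmodulin-binding protein abundant in brain, followed the same split, with 16.6, 14.5 and 15.9 CPM in no odour 1, 2 and 3 and 2.30 and 1.51 CPM in no odour 4 and 6. Mup5, a major urinary protein of nasal glands, did as well, with 251, 242 and 254 CPM against 111 and 61.9. No odour 4 lay apart from the other four for many genes, Omp among them at 10670 CPM. Neither the labels nor the methods name a day, litter or batch for any library, so these differences and the absence of odour cannot be told apart, and nothing says that the libraries of one group came from separate exposures. P-values therefore measure only the spread between these libraries. For these reasons counts are given below also with ribosomal RNA or the mitochondrial share in the model, and with no odour 1, 2 and 3 or no odour 4 and 6 alone as controls.

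Of the 20444 genes tested, 973 were higher with odour than without (4.76%) and 1442 lower (7.05%), which is 11.8% of genes in all. The changes were mostly small, with a median size of 0.43 on the log2 scale among the genes called and 72 of them beyond 2-fold, while the median over all genes tested was -0.02. Taken one odour at a time, all 3 against the same 5 libraries, 195 genes were called under NCD odour (0.954%), of which 104 were higher (0.509%) and 91 lower (0.445%). Under bacon odour 2744 were called (13.4%), 978 higher (4.78%) and 1766 lower (8.64%), and under HFD odour 195 (0.954%), 118 higher (0.577%) and 77 lower (0.377%). The 16 libraries with odour all lay above the 5 without for 488 genes (2.39%) and below them for 342 (1.67%). These counts depended on the controls: no odour 1, 2 and 3 alone gave 1079 higher (5.13%) and 869 lower (4.14%), and 4 and 6 alone gave 64 (0.299%) and 206 (0.963%). Leaving out 1 library moved the genes higher over 1.5-fold for no odour 1 (645), no odour 2 (479), no odour 3 (559) and no odour 6 (1518), and the genes lower for no odour 2 (832) and no odour 4 (757). With the ribosomal RNA share of each library in the model, 78.6% of whose variance on the log2 scale lay between the groups, 7 genes were higher (0.0342%) and 0 lower by edgeR (873 and 769 at an unadjusted p under 0.05). The mitochondrial share, with 80.6% between the groups, left 3 higher (0.0147%) and 0 lower (1559 and 2081 unadjusted).

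Under each of the 3 odours, 51 genes were higher (0.249%) and 32 lower (0.157%). For 50 of the 51 and 31 of the 32, all libraries with odour lay on one side of all libraries without. These genes were chosen by their calls on the same libraries, so this separation is no further evidence. Over all genes tested it held for 2.39% above and 1.67% below. The median log2 fold change for any odour was 0.53 among the 51 (0.29 to 1.53) and -0.66 among the 32 (-5.60 to -0.29). How far this set rested on single libraries was counted gene by gene: 21 of the 51 and 7 of the 32 passed under each odour in every one of the 21 fits that leave out 1 library. Of these, 6 and 2 also passed with either subset of controls, namely Fos, Nr4a1, Kcng1, Sik1, Egr1 and Ppp1r10 among the rises and Dmp1 and the antisense transcript Gm6598 among the falls. Gm6598 lies antisense to another gene, and reads of both strands cannot be told apart where counting did not use strand. The genes of this set are described next, by role.

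Activity-dependent transcription factors led the rises. Fos, a subunit of the AP-1 factor, stood at 2.52, 3.29, 3.68, 3.70 and 2.87 CPM in the 5 libraries without odour and at 6.88 to 10.93 CPM with odour (median 9.29). Its log2 fold change was 1.53 ± 0.09 (SE, adjusted p = 5.9e-11), with 1.54 under NCD, 1.62 under bacon and 1.44 under HFD odour. No library with odour came near one without. Nr4a1, an orphan nuclear receptor induced by calcium, was at 20.1, 20.1, 20.6, 28.9 and 25.6 CPM without odour and at 41.0 to 66.5 CPM with odour (median 55.4), a difference of 1.26 ± 0.08 (SE, adjusted p = 6.9e-11). Egr1, a zinc finger factor, was nearly constant without odour, at 27.0, 26.9, 29.3, 27.9 and 27.5 CPM, and rose to 44.1 to 56.5 CPM (median 50.9; 0.85 ± 0.05, SE, adjusted p = 1.9e-11). Fos, Nr4a1 and Egr1 were also called with the ribosomal RNA share in the model (1.72, 1.45 and 1.02) and with the mitochondrial share (1.62, 1.26 and 0.83). No other gene was called in both. Sik1, a kinase that CREB induces and that restrains CREB's coactivators, was at 11.8, 12.03, 10.5, 8.93 and 12.9 CPM without odour and at 17.6 to 24.5 CPM with odour (0.92 ± 0.07, SE, adjusted p = 8.8e-09). It was also called with the ribosomal RNA share in the model (0.95), but not with the mitochondrial share (0.47, adjusted p = 0.079).

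Of 40 immediate early genes, 39 were tested and Vgf was too low. Among these 39, 9 rose and 2 fell, beside 4.76% and 7.05% of all genes, with a median of 0.07 (all genes -0.02). Their summed level ran from 758 to 776 CPM without odour and from 860 to 935 CPM with it. Besides Fos, Nr4a1, Egr1 and Sik1 the rises were Fosb (1.29), Nr4a2 (0.76), Arc (0.75), Ier5 (0.61) and Dusp1 (0.32), the last a phosphatase that switches MAP kinases off. Ier5, an immediate early response gene, moved from 45.3 ± 2.88 CPM (SD, n = 5) to 69.8 ± 6.35 (SD, n = 16) and was called under each odour. Arc, a synaptic regulator of glutamate receptors, rose from 3.00 to 5.07 CPM, although no odour 4 with 1.31 CPM was low among its group and the log2 fold change without it was 0.57. The falls were Ier3 (-0.73), an inhibitor of cell death, from 21.6 to 13.1 CPM, and Klf10 (-0.30), a repressor induced by TGF-beta, whose call was lost without no odour 2. Not all of the family moved: Jun had 89.5 and 83.5 CPM (-0.10, adjusted p = 0.19), Junb 5.11 and 3.83 CPM (-0.42, adjusted p = 0.012) and Npas4, a neuronal factor, 0.41 and 0.57 CPM (0.47, adjusted p = 0.36). With no odour 4 and 6 alone as controls 8 of the 39 rose and 1 fell (all genes 0.299% and 0.963%), and with no odour 1, 2 and 3 alone 10 and 1 (5.13% and 4.14%).

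**Figure D2:**
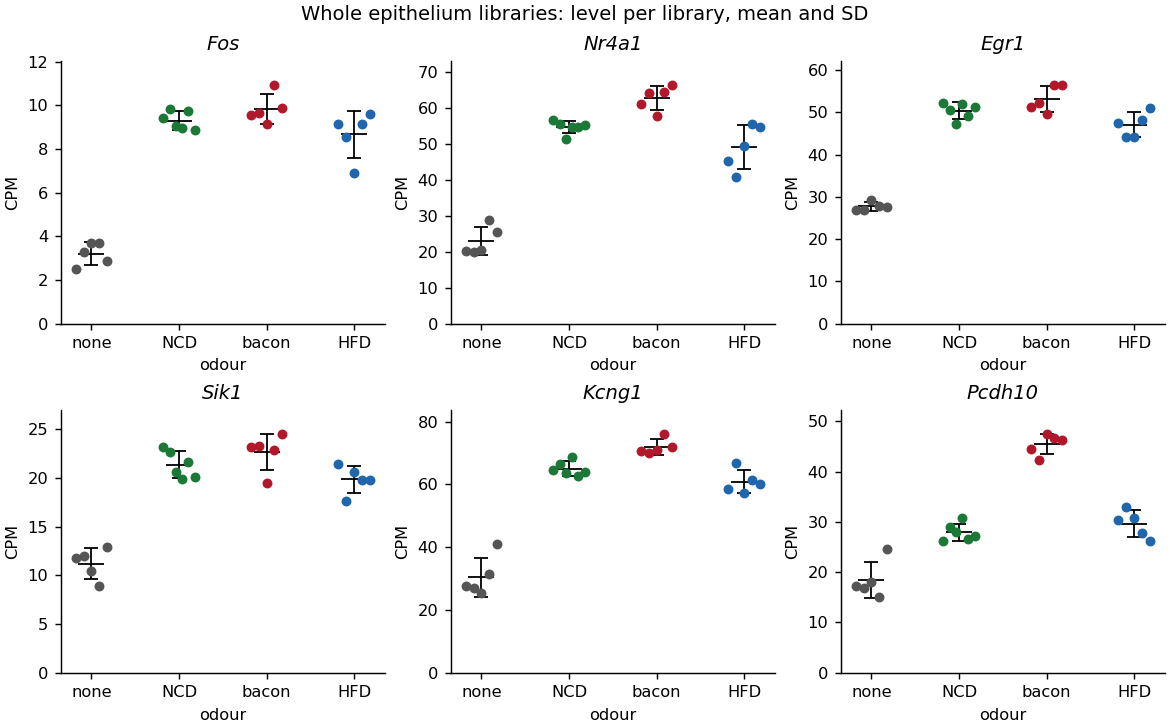
CPM of Fos, Nr4a1, Egr1, Sik1, Kcng1 and Pcdh10 in each whole epithelium library (points), with the mean and SD of each odour group. For all 6 genes every library with odour lies above every library without, and for Pcdh10 the 5 bacon libraries (42.4 to 47.5 CPM) lie above the 11 with the other odours (26.1 to 32.9 CPM).

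The other rises under each odour included ion channels, adhesion molecules and nuclear RNA-binding proteins, for which no list was tested. Kcng1, a modifier subunit of voltage-gated potassium channels, stood at 27.5, 26.9, 25.4, 31.5 and 40.8 CPM without odour and at 57.3 to 76.0 CPM with it (median 65.6; 1.11 ± 0.07, SE, adjusted p = 2.8e-10). No odour 6 was the highest of its group and still below every library with odour. It was also called with the ribosomal RNA share in the model (0.89), but not with the mitochondrial share (0.94, adjusted p = 0.0067). Kcnmb3, an auxiliary subunit of calcium-activated potassium channels, rose from 60.7 ± 8.59 to 96.8 ± 9.01 CPM (0.67), and Hcn4, a pacemaker channel that cyclic AMP gates, from 17.7 ± 3.88 to 27.7 ± 2.14 CPM (0.65). Pcdh10 and Kirrel2 are adhesion molecules that help sensory axons sort. Pcdh10 went from 18.4 ± 3.61 to 34.0 ± 8.30 CPM (0.87 ± 0.08, SE, adjusted p = 8.3e-08), and Kirrel2 from 118 ± 27.9 to 179 ± 6.58 CPM (0.59 ± 0.08, SE, adjusted p = 1.6e-05). For Kirrel2 no odour 1, 2 and 3, at 93.4, 105 and 101 CPM, lay well below no odour 4 and 6, at 133 and 160 CPM, and all of these below the lowest library with odour at 166 CPM.

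Lrrc3b, a leucine-rich repeat membrane protein, rose from 117 ± 25.5 CPM (SD, n = 5) to 199 ± 16.2 (SD, n = 16; 0.77). Heg1, a mucin-like receptor of vessels and other epithelia, rose from 118 to 191 CPM (0.69). Bmp6, a bone morphogenetic protein, rose from 6.18 to 9.76 CPM (0.66) and Ankrd26, an ankyrin repeat protein, from 8.08 to 13.9 CPM (0.78). Ninj2, an adhesion molecule induced by nerve injury, had a larger ratio at a low level, from 0.86 to 2.29 CPM (1.40 ± 0.18, SE, adjusted p = 8.1e-06). Among nuclear RNA-binding proteins, the splicing factor Tra2a rose from 24.9 ± 6.60 to 46.4 ± 3.84 CPM (0.89) and Pcf11, a factor that ends transcription, from 81.4 to 125 CPM (0.62). Ppp1r10, a nuclear targeting subunit of protein phosphatase 1, rose from 45.6 ± 2.83 to 69.8 ± 3.17 CPM (0.62 ± 0.05, SE, adjusted p = 3.3e-09). For Tra2a no odour 4 was low at 15.6 CPM and no odour 6 high at 34.2 CPM, still under the lowest library with odour (39.1 CPM). The endoplasmic chaperone Hspa5 rose as well, from 147 ± 24.0 to 208 ± 13.7 CPM (0.50), and so did Tug1, a long non-coding RNA kept in the nucleus (0.50). Of the 51 rises under each odour 5 were called for any odour with the ribosomal RNA share in the model and 3 with the mitochondrial share. With the ribosomal RNA share the log2 fold change was 0.53 for Pcdh10, 0.27 for Kcnmb3, 0.28 for Ankrd26, 0.15 for Pcf11 and 0.18 for Hspa5, and none of these was called. With the mitochondrial share that of Hcn4 was 0.19 and that of Tra2a 0.42, neither called.

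**Figure D3:**
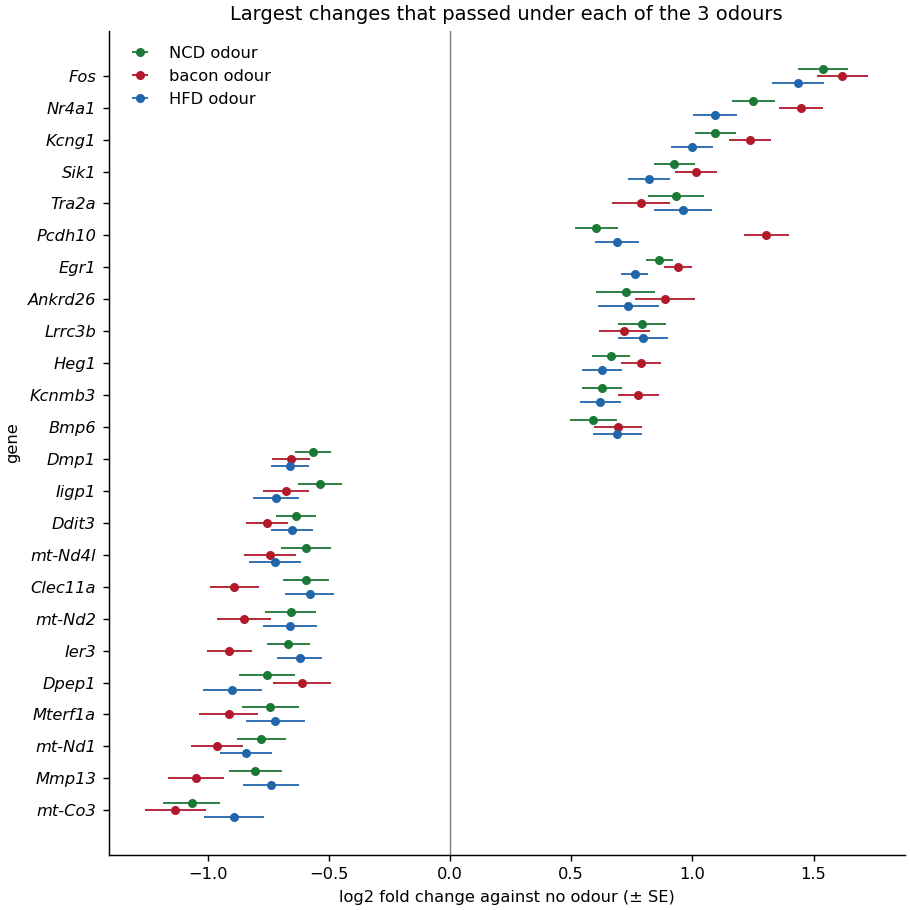
Log2 fold change against no odour, with its SE, under NCD, bacon and HFD odour for the 12 largest rises and the 12 largest falls among named protein-coding genes called under each odour, with a mean of at least 5 CPM over the 21 libraries. The 3 odours share the 5 libraries without odour, rises run to 1.62 (Fos, bacon) and falls to -1.13 (mt-Co3, bacon), and Pcdh10 shows the widest gap between odours (0.60, 1.31 and 0.69).

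The falls under each odour were of other kinds. Apart from Ttr (-5.60), for which the split among controls was given above, mitochondrial messages were among the largest, with mt-Co3, a subunit of cytochrome oxidase, at 923, 952, 1154, 1105 and 772 CPM without odour and at 381 to 642 CPM with odour (median 452; -1.03 ± 0.09, SE, adjusted p = 2.3e-07). Mmp13, a collagenase of bone and cartilage, fell from 202 ± 35.2 to 112 ± 16.7 CPM (-0.86), with no overlap. Dmp1, a matrix protein of osteocytes, stood at 15.5, 15.6, 16.1, 19.8 and 15.7 CPM without odour and at 10.7 ± 0.710 CPM with it (SD, n = 16; -0.63 ± 0.06, SE, adjusted p = 3.2e-07). The stress-induced factor Ddit3 fell from 47.8 ± 4.17 CPM (SD, n = 5) to 29.9 ± 3.01 (SD, n = 16; -0.68). The mitochondrial transcription factor Mterf1a fell from 16.6 to 9.62 CPM (-0.79) and Clec11a, a growth factor of bone, from 18.4 to 11.5 CPM (-0.69). Immune genes were among them too: Iigp1, an interferon-induced GTPase, fell from 19.8 to 12.8 CPM (-0.64) and the chemokine Ccl5 from 4.00 to 1.81 CPM (-1.15). Dpep1, a membrane dipeptidase, fell from 12.4 to 7.38 CPM (-0.75), and here 1 pair of libraries overlapped, no odour 6 at 8.73 CPM and a library with odour at 8.82 CPM. Aqp1, a water channel, fell from 88.9 ± 9.09 to 62.3 ± 4.91 CPM (-0.51 ± 0.06, SE, adjusted p = 4.7e-06). None of the 32 was called with the ribosomal RNA or the mitochondrial share in the model. The mitochondrial share is the sum of the mitochondrial messages, so the fit with it cannot test falls such as that of mt-Co3.

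Beyond single genes, 3 large gene groups moved one way together. All 13 mitochondrially encoded protein genes fell (median -0.69, from -1.14 to -0.57). Of 81 ribosomal protein genes 54 fell and 0 rose (median -0.51), and of 77 nuclear genes of the respiratory chain 50 fell and 0 rose (median -0.62). At the level of single genes, mt-Nd1, a subunit of complex I, fell from 2512 to 1390 CPM (-0.86), mt-Co2 from 1482 to 698 CPM (-1.11) and mt-Nd3 from 23.2 to 10.7 CPM (-1.14). Rpl5, a protein of the large ribosomal subunit, fell from 232 ± 12.8 to 182 ± 18.9 CPM (-0.36). Rpl22l1, a paralogue of a large subunit protein, fell from 22.6 to 13.8 CPM (-0.73). For the respiratory chain, Cox7a2l, a factor of supercomplex assembly, fell from 280 to 189 CPM (-0.58), Ndufv2 from 124 to 84.3 CPM (-0.57) and Ndufs3 from 55.8 to 36.3 CPM (-0.63). Histone genes that cells express when they replicate DNA moved likewise, with 26 of 62 lower and 0 higher (median -0.64), for example Hist1h4a (5.09 to 2.18 CPM), Hist1h4k (9.30 to 4.95 CPM) and Hist3h2a (105 to 79.6 CPM). These groups stand beside 7.05% of all genes lower and 4.76% higher. Mitochondrial genes have near-identical nuclear copies, and histone and ribosomal protein genes have close paralogues or pseudogenes, so that the split of reads among copies is uncertain.

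These groups are made of short transcripts, and the difference from no odour ran with length across all genes. With the genes in 4 groups of equal size by length, among the shortest (exonic length up to 2177 bases) 685 were lower and 19 higher, and among the longest (from 5943 bases) 126 were lower and 649 higher. The median log2 fold change went from -0.20 to 0.13 between these groups. Spearman's rho between length and log2 fold change across 20243 genes, which share their libraries and are no independent replicates, was 0.38 under NCD, 0.36 under bacon and 0.34 under HFD odour, and -0.06 in the pulldown libraries of the same pools. Genes called higher had a median exonic length of 7526 bases and those called lower 2296, against 3679 for all tested, while the 51 and 32 called under each odour had 5623 and 2615. With the trend over length and GC content removed from each library, 847 genes were higher (4.18%) and 1109 lower (5.48%), and 50 of the 51 and 29 of the 31 such falls that could be fitted were still called for any odour. In that fit 6 of the 13 mitochondrial, 33 of the 81 ribosomal protein and 28 of the 77 respiratory chain genes fell, and 17 of the 62 histone genes. With either share in the model none of these genes was called. The mitochondrial share is itself the sum of the 13 mitochondrial genes, so the fit with it cannot test them. With no odour 4 and 6 alone as controls 3, 0 and 4 of the first 3 groups and 8 histone genes fell (all genes 0.963%). In the pulldown libraries of the same pools, with 4.48% of genes higher and 3.83% lower in the same fit, none of the mitochondrial and ribosomal protein genes was called (medians 0.01 and -0.09), and of the respiratory chain 1 rose and 1 fell (0.10). Of the 62 histone genes 2 rose and 6 fell there (-0.32). Mitochondrial messages were scarce in the pulldowns, at 0.036% to 0.520% of the counts outside ribosomal RNA, against 0.935% to 1.93% in the inputs. Their lack of a call in the pulldowns therefore cannot decide on their fall in the inputs.

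**Figure D4:**
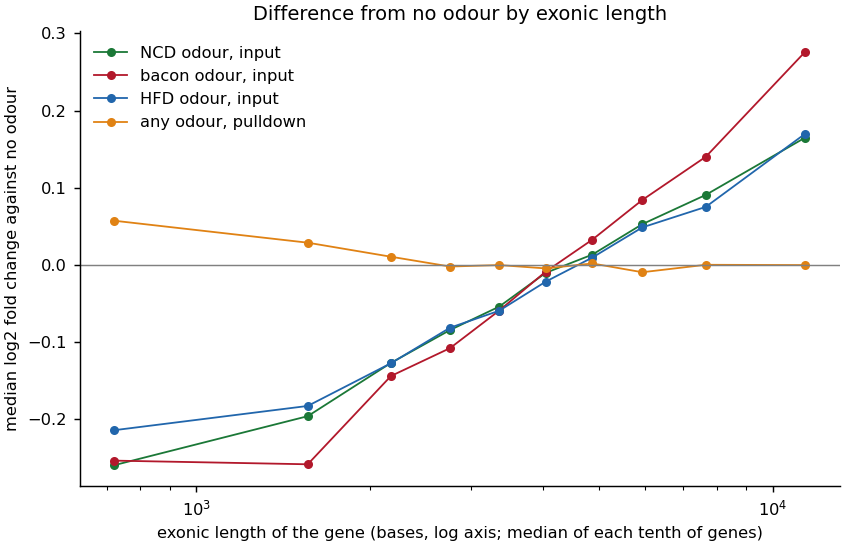
Median log2 fold change against no odour in 10 equal groups of the tested genes by exonic length (log axis, bases), for each odour in the whole epithelium libraries and for any odour in the pulldown libraries of the same pools. In the whole epithelium the medians go from between -0.26 and -0.21 in the shortest group to between 0.16 and 0.28 in the longest, and in the pulldowns they stay between -0.01 and 0.06.

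Stress and rhythm genes gave small and mixed counts, which stand beside 4.76% of all genes higher and 7.05% lower. Of 18 heat shock genes 3 rose and 0 fell (median 0.15), namely Hspa1b (0.60), Hsph1 (0.37) and Dnaja1 (0.44), the last lost without no odour 1, 2 or 3. Of 18 genes of endoplasmic reticulum and integrated stress, 1 rose (Hspa5) and 4 fell (median -0.07). The falls were Ddit3, Trib3, a pseudokinase that Ddit3 induces, from 10.1 to 6.49 CPM (-0.64), and Manf, a secreted factor, from 33.6 to 24.2 CPM (-0.48). The last was Xbp1, a factor of the unfolded protein response, from 110 to 89.6 CPM (-0.30, lost without no odour 1, 2 or 3). Among 19 clock genes 6 rose and 1 fell (median 0.05). Against no odour 4 and 6 alone none of the 19 was called by edgeR (all genes 0.299% higher and 0.963% lower). Against no odour 1, 2 and 3 alone 4 rose and 0 fell (all genes 5.13% and 4.14%). Per1 rose from 36.0 ± 4.73 to 48.6 ± 3.66 CPM (0.43) and Nr1d1, a repressor of the clock, from 97.5 ± 2.80 to 125 ± 9.93 CPM (0.36), both without overlap. The other rises were Per2 (0.41), Clock (0.30), Dbp (0.31) and Hlf (0.24). Dbp was lost without no odour 1, 4 or 6 and Hlf without no odour 1. The hour of dissection is not given in the sources used here, and its part in these values was not tested.

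Of 15 genes that glucocorticoids regulate, 2 rose (Per1 and Hif3a, 2.63 to 4.81 CPM) and 4 fell (median -0.14). This and the next counts stand beside 4.76% of all genes higher and 7.05% lower. The falls of the glucocorticoid list were the metallothioneins Mt1 (341 to 195 CPM, -0.82) and Mt2 (386 to 289 CPM, -0.42), Ddit4 (-0.47) and Tsc22d3 (-0.40). No odour 4 was the highest of all libraries for Mt2, whose call was lost in 14 of the 21 fits without 1 library (-0.47 to -0.28). Ddit4 was lost without no odour 2 and Tsc22d3 without no odour 1, 2 or 4. Cirbp, an RNA-binding protein induced by cold, fell by 1.01 on the log2 scale, from 100 ± 17.2 to 50.5 ± 10.1 CPM (adjusted p = 6.2e-06), although it was not called under each odour. Of 17 interferon genes 2 fell and 0 rose (median -0.08): Irf7 (-0.59), lost without no odour 3, and Isg15 (-0.51), lost in 17 of the 21 fits (-0.59 to -0.43). Among 8 cytokines 1 fell, Ccl3 (-1.01, lost in 18 of the 21 fits, -1.16 to -0.82), and among 13 hypoxia genes 1, Bnip3, a mitophagy receptor (-0.44).

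Markers of the neuronal lineage moved in both directions, and with either share in the model no member of any list but the immediate early genes was called. Of 30 mature sensory neuron genes 6 rose and 2 fell (median 0.10), beside 4.76% and 7.05% of all genes. Against no odour 4 and 6 alone none of the 30 was called by edgeR (all genes 0.299% higher and 0.963% lower). Against no odour 1, 2 and 3 alone 4 rose and 2 fell (all genes 5.13% and 4.14%). Their summed level overlapped between groups, at 34270 to 39531 CPM without odour and 35812 to 40895 CPM with it. Transduction genes stood on both sides: the cyclase Adcy3 rose from 252 ± 25.7 to 303 ± 11.7 CPM (0.27) and the channel subunit Cngb1 from 177 ± 19.4 to 216 ± 13.6 CPM (0.28), both lost without no odour 1, 2 or 3. The G protein subunits Gng13 (650 to 373 CPM, -0.83) and Gnb1 (3802 to 3115 CPM, -0.30) fell. The calls of Gng13 and Gnb1 were lost in 15 (-0.91 to -0.63) and 13 (-0.34 to -0.27) of the 21 fits without 1 library. Those of Gnal, the olfactory G protein (0.30), Nrp1, an axon guidance receptor (0.33), and Slc24a4, a calcium exchanger (0.38), were lost in 16 (0.24 to 0.35), 14 (0.27 to 0.37) and 7 fits (0.29 to 0.49). Omp itself did not pass (-0.29, adjusted p = 0.0013). Of 16 immature neuron genes Dcx, a microtubule protein, rose from 690 ± 119 to 964 ± 74.1 CPM (0.48). In the same list Gng8 (-0.59, lost without no odour 2 or 4), Stmn1 (-0.47, lost without no odour 4) and Marcksl1 (-0.33, lost without no odour 2 or 3) fell (median -0.09). Among 17 globose basal and progenitor genes 1 rose and 2 fell, with a median of -0.03. Hes6 (-0.51, lost without no odour 2, 3 or 4) and Cxcr4 (-0.37, lost in 14 of the 21 fits, -0.39 to -0.34) fell. In bulk tissue fewer cells of a type and less RNA per cell cannot be told apart.

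Few odorant receptors were called as single genes. Of 879 receptors tested 4 were higher and 1 lower (median 0.03), beside 4.76% and 7.05% of all genes. In the pulldown libraries of the same pools 95 were higher and 0 lower of 815 (median 0.30), beside 4.48% and 3.83% of all genes there. Olfr983 fell from 10.7 ± 1.06 to 7.02 ± 0.987 CPM (-0.62 ± 0.07, SE, adjusted p = 4.4e-06), with no library with odour above 8.64 CPM and none without below 9.56. The rises were Olfr1173 (0.92 to 1.67 CPM), Olfr303 (1.53 to 2.33 CPM), Olfr332 (10.7 to 14.4 CPM) and Olfr536 (164 to 190 CPM). The calls of these 4 were lost in 14, 13, 12 and 8 of the 21 fits without 1 library (0.81 to 0.92, 0.50 to 0.68, 0.34 to 0.55 and 0.20 to 0.27). Receptors of one family share sequence, and reads may be split among near copies. Together the receptors took 0.289% of the counts outside ribosomal RNA without odour and 0.312% with odour (exact permutation of the libraries, two-sided p = 0.0185). This share followed the split among controls, at 0.272%, 0.256% and 0.282% in no odour 1, 2 and 3 and 0.319% and 0.318% in no odour 4 and 6. With odour it ran from 0.292% to 0.339%. Against no odour 4 and 6 alone the median log2 fold change of the receptors was -0.09. None was called by edgeR there, beside 0.299% of all genes higher and 0.963% lower. Of 9 trace amine-associated receptors none was called by edgeR, the one with the smallest p being Taar6 (1.22 to 2.11 CPM, 0.78, adjusted p = 0.0011).

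Among the other cell types of the tissue, genes of bone and cartilage stood out by count. Of 19 such genes 12 fell and 0 rose (median -0.43), beside 7.05% and 4.76% of all genes. The summed level was 3172 to 4288 CPM without odour and 2410 to 3383 CPM with it. Besides Mmp13 and Dmp1 these included Acp5, the acid phosphatase of osteoclasts, from 45.6 ± 8.86 to 25.2 ± 4.96 CPM (-0.87), and Ibsp, a bone sialoprotein, from 117 to 84.8 CPM (-0.47). Bglap, osteocalcin, fell from 188 to 104 CPM (-0.87, lost without no odour 2 or 4), which has near-identical neighbouring copies. No odour 4 was the highest library for each of these 5 genes. The cartilage genes Acan (0.11, edgeR adjusted p = 0.56) and Col10a1 (-0.04, adjusted p = 0.83) of the same list were not called. Log2 fold changes were positive for 3 of the 19. With no odour 4 and 6 alone 4 of the 19 fell (all genes 0.963%) and with no odour 1, 2 and 3 alone 10 (4.14%). In the pulldowns 9 of 18 fell (3.83%). How much bone was dissected with each epithelium is not given, and its part in these values was not tested. Of 12 fibroblast genes 5 fell (median -0.32), beside 7.05% of all genes. These were the collagens Col3a1 (62.5 to 47.8 CPM, -0.39) and Col6a1 (-0.38, lost without no odour 1, 2, 3 or 4), the matrix proteins Lum (-0.35) and Postn (-0.30) and the actin-severing Gsn (-0.39, lost without no odour 2 or 4). All 16 macrophage genes had negative log2 fold changes (median -0.24) and 3 were called. They were the complement genes C1qb (-0.58) and C1qa (-0.91) and the lipid carrier Apoe (247 to 166 CPM, -0.58), C1qa and Apoe lost without no odour 2 or 4. With no odour 4 and 6 alone none of the 16 was called by edgeR (all genes 0.299% higher and 0.963% lower). With no odour 1, 2 and 3 alone 3 fell (all genes 4.14%). In the pulldowns 15 of the 16 fell (median -0.71; all genes 3.83%).

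Epithelial and glandular lists held few calls, beside 4.76% of all genes higher and 7.05% lower. Of 32 supporting cell genes 2 rose, the glucuronosyltransferase Ugt2a2 (330 to 428 CPM, 0.37) and Notch2 (0.29), both lost without no odour 1, 2, 3 or 4, and the median was 0.03. Notch2 also stood for the horizontal basal cells, of whose 12 genes it rose and Perp (-0.36), a desmosome protein, and Sfn (-0.41, lost without no odour 2 or 4) fell. Of 29 gland genes 1 rose, the lipocalin Lcn4 (8.05 to 14.7 CPM, 0.87, lost without no odour 3 or 4), and 4 fell. The falls were Mup5 (-1.52), the secreted proteins Bpifb3 (2018 to 1510 CPM, -0.43) and Bpifb4 (-0.33, lost in 12 of the 21 fits, -0.39 to -0.28) and the secretoglobin Scgb1c1 (-0.50, 12 fits, -0.57 to -0.29). The gland list depended on the controls. Against no odour 4 and 6 alone it had 8 rises and 0 falls (all genes 0.299% and 0.963%). Against no odour 1, 2 and 3 alone it had 2 rises and 8 falls (all genes 5.13% and 4.14%). In the pulldowns 17 rose and 7 fell (median 1.16, all genes 4.48% and 3.83%). Of 20 ciliated cell genes 1 rose (Ccdc40, 0.28, lost without no odour 2, 3 or 4), and of 12 microvillous genes none was called by edgeR (Krt18, a keratin, had the smallest p, -0.38, adjusted p = 0.0013). Among 12 glial genes Sox10 (0.32) and Erbb3 (0.25, lost in 6 of the 21 fits, 0.19 to 0.29) rose and Aqp1 and Fabp7 (-0.33) fell.

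Blood, vessel, muscle and bulb lists held few calls, beside the same 4.76% of all genes higher and 7.05% lower. Of 13 erythroid genes 2 fell, Bpgm (-0.28) among them, and of 14 neutrophil genes Mmp9 (25.9 to 16.8 CPM, -0.63). Further falls were, of 14 B and plasma cell genes Ly6d (-0.87, lost without no odour 2, 3 or 4) and of 13 vessel genes Tagln (-0.39). None of 9 T and NK cell genes (Gzma, -0.72, adjusted p = 0.0023) and none of 6 muscle genes (Acta1, -0.71, adjusted p = 0.071) was called by edgeR. Among 14 genes of olfactory bulb neurons Cdhr1 (91.9 to 120 CPM, 0.38) and Slc17a6 (0.24, lost in 18 of the 21 fits, 0.22 to 0.30) rose and Calb2 (-0.57) and Eomes (-0.35, lost in 15 fits, -0.37 to -0.32) fell. Of 9 genes of atypical neurons Car2 (-0.22, lost in 18 fits, -0.25 to -0.16) and Gnai2 (-0.22, lost in 17 fits, -0.25 to -0.19) fell. Of 14 nuclear-retained or small non-coding RNAs only Tug1 was called, and Malat1, at 6762 ± 2383 and 10245 ± 2595 CPM, did not pass (0.60, adjusted p = 0.030).

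The tests so far set the mean of the 3 odours, or each odour, against none. A call for the mean can rest on 1 odour, as for Hspa1b (1.425 under NCD, 0.18 under bacon and 0.20 under HFD odour). A test among the 3 odours asks where they differ. It called 33 genes (0.161%), although past the threshold under 1 odour alone were 17 higher and 7 lower genes for NCD, 847 and 1643 for bacon and 13 and 4 for HFD. Of those, 2 and 0, 7 and 3, and 3 and 1 also differed among the odours, so most genes called under bacon odour alone were not shown to differ from the other odours. Of the 39 immediate early genes 1, Fosb, differed among the odours. It stood at 1.31, 2.01, 1.00, 0.90 and 1.59 CPM without odour, and at 2.37 to 3.49 CPM (median 2.79) with NCD odour. It was at 4.80, 4.73, 4.97, 6.08 and 6.04 CPM with bacon odour and at 2.95, 2.09, 2.77, 1.89 and 2.68 CPM with HFD odour (test among odours, adjusted p = 0.00028). All 5 bacon libraries lay above all others. Pcdh10 was likewise highest with bacon odour, with 28.0 ± 1.71 CPM under NCD (SD, n = 6), 45.5 ± 2.07 under bacon (SD, n = 5) and 29.7 ± 2.64 under HFD odour (SD, n = 5; among odours, adjusted p = 1.7e-05). Galnt14, an enzyme of O-linked glycosylation, was at 39.7 CPM under NCD, 54.3 under bacon and 39.0 under HFD odour (adjusted p = 0.00079). For Fos (adjusted p = 0.45), Nr4a1 (0.07), Egr1 (0.14) and Kirrel2 (0.87) no difference among odours was called.

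Of 18 heat shock genes 4 differed among the odours. Hspa1a stood at 6.93, 4.30, 6.10, 5.37 and 6.89 CPM without odour, and at 13.5 to 16.3 CPM (median 14.4) with NCD odour. It was at 6.49, 4.94, 6.22, 6.55 and 6.83 CPM with bacon odour and at 5.45, 4.76, 5.51, 5.99 and 6.43 CPM with HFD odour (among odours, adjusted p = 3.1e-09). Its neighbour Hspa1b, a near-identical copy with which reads may be shared, ran in parallel, at 2.82 CPM without odour, 7.59 with NCD, 3.2004 with bacon and 3.24 with HFD odour. Each of the 6 NCD libraries lay above the other 15 for both. Hsph1, a partner of these chaperones, was at 102, 152, 116 and 130 CPM in the same order (adjusted p = 0.00029) and Dnajb1, another partner, at 238, 297, 201 and 244 CPM (adjusted p = 0.00067). Against no odour Hsph1 was called under NCD and also under HFD odour (edgeR, adjusted p = 0.0003), and Dnajb1 was not called under NCD odour (adjusted p = 0.0069).

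Cartilage, antibody and gland genes gave the widest ratios among odours. Acan, the proteoglycan of cartilage, stood at 1.57, 2.01, 1.88, 2.25 and 2.59 CPM without odour, and at 1.68 to 2.88 CPM with NCD odour. It was at 5.71, 4.48, 4.76, 4.95 and 5.14 CPM with bacon odour and at 1.07, 1.03, 1.03, 1.05 and 1.22 CPM with HFD odour. Bacon libraries were all the highest and HFD libraries all the lowest. Cytl1, a factor made by cartilage, followed it (4.74, 4.55, 11.97 and 1.28 CPM for none, NCD, bacon and HFD), as did Col10a1, a collagen of cartilage turning to bone (3.30, 2.84, 5.94 and 1.97 CPM). The variance of Col10a1 among the 5 bacon libraries was 0.095 of that of counting alone and of Acan among the 5 HFD libraries 0.11. In the other groups it ran, for both genes, from 0.66 to 3.73 of counting. Ighg2c, an antibody heavy chain, had 7.46 counts in all over the 5 libraries without odour and 3.24 CPM with bacon odour, 0.55 with HFD and 0.14 with NCD odour. Igha, the chain of mucosal antibody, was at 14.2 and 12.8 CPM without odour and with NCD odour and at 26.9 and 27.0 CPM with bacon and HFD odour. Antibody genes form a family of similar copies.

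Some secreted proteins of glands differed among the odours as well. Crisp1, a cysteine-rich secreted protein, stood at 4.73 to 6.57 CPM in the 5 HFD libraries and at 0.67 to 2.26 CPM in the other 16. The secretoglobins Scgb1b27 (5.66 CPM against 1.41 with bacon and 1.09 without odour) and Scgb2b27 (3.77, 0.68 and 1.06 CPM) and Car6, a secreted carbonic anhydrase (8.65, 1.55 and 2.76 CPM), were likewise highest with HFD odour. Under NCD odour they stood at 2.36, 2.01 and 4.86 CPM, and Scgb1b27 was called there too (edgeR, adjusted p = 0.00049). Of the 1643 falls past the threshold under bacon odour alone, 3 also differed among the odours. They were 2310057J18Rik (2.56 CPM against 8.61 without odour), the odorant-binding protein Obp1a (165 against 405 CPM) and its relative Gm14743 (46.4 against 97.4 CPM). Under NCD odour 2310057J18Rik was at 9.64 CPM, while Obp1a was at 227 CPM (edgeR, adjusted p = 0.0035) and Gm14743 at 49.8 CPM (adjusted p = 0.0012), both just short of the threshold. Moxd2, a monooxygenase, passed as a fall under HFD odour alone (77.9 against 106 CPM), with 115 CPM under NCD and 90.04 under bacon odour. Obp1a and Gm14743 ranged from 197 to 511 CPM and from 48.9 to 123 CPM among the libraries without odour, with no odour 6 the lowest for both.

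**Figure D5:**
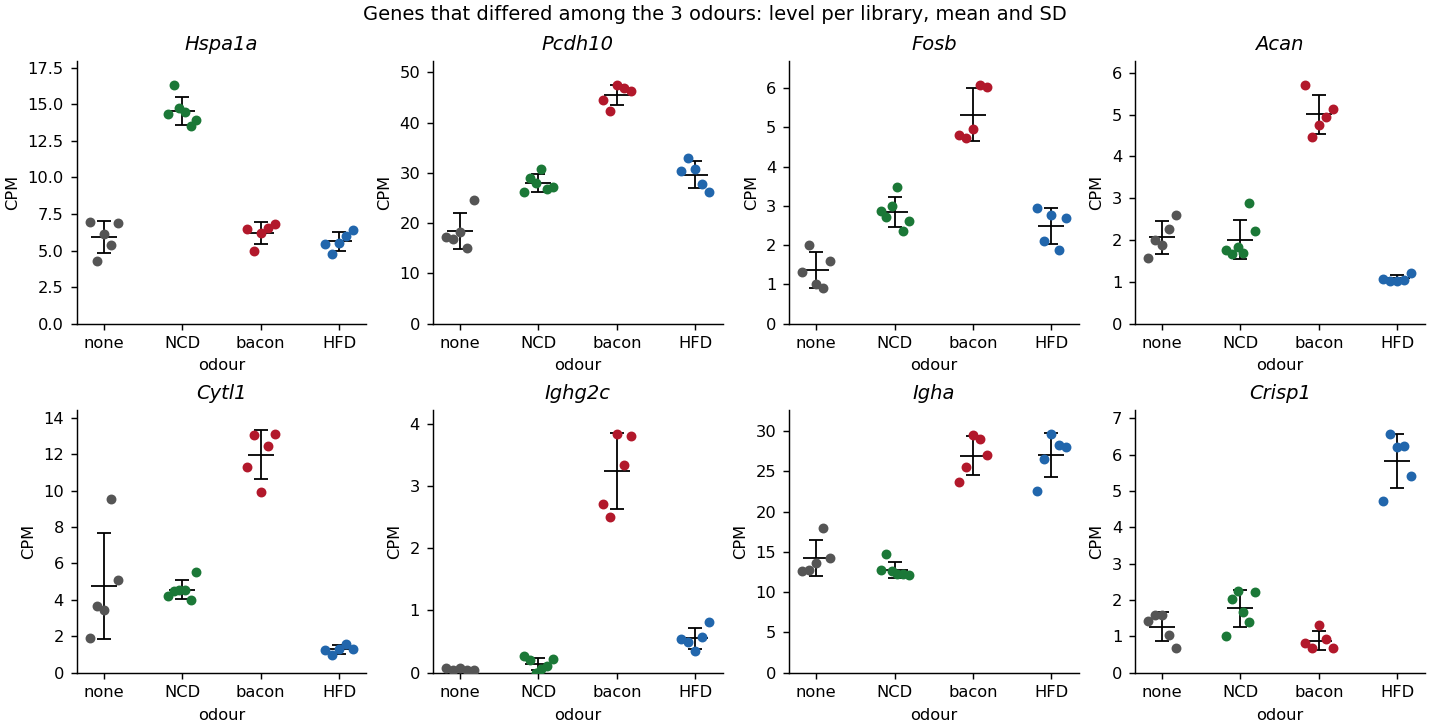
CPM of 8 genes that differed among the 3 odours, in each whole epithelium library (points), with the mean and SD of each group. Hspa1a is high in the 6 NCD libraries, Pcdh10, Fosb, Acan, Cytl1 and Ighg2c in the 5 bacon libraries, Crisp1 in the 5 HFD libraries and Igha in both of the latter groups.

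The pulldown libraries were made from the same pools and are no independent sample of animals, so their values stand beside those of the whole epithelium as a description. For any odour against none the pulldown log2 fold change was 1.42 for Fos, 1.46 for Nr4a1, 1.12 for Egr1, 0.90 for Sik1, 1.15 for Kcng1, 0.65 for Pcdh10 and 0.53 for Ppp1r10, close to the values in whole tissue (1.53, 1.26, 0.85, 0.92, 1.11, 0.87 and 0.62). Npas4 was at 2.15 in the pulldowns and 0.47 in whole tissue, and Arc at -0.16 and 0.75. Of the 51 rises under each odour 33 were called the same way in the pulldowns and 51 had the same sign. Of the 32 falls 7 were called the same way and 23 had the same sign. These counts stand beside 4.48% of all genes higher and 3.83% lower in the pulldowns. Among the falls, Dmp1 had -0.52, Mmp13 -0.55 and Ccl5 -1.09 in the pulldowns, near their values in whole tissue, while mt-Co3 (-0.20), mt-Nd1 (-0.03), Clec11a (-0.10) and Mterf1a (-0.06) were near 0 there. Mitochondrial messages were scarce in the pulldowns, so the values of mt-Co3 and mt-Nd1 there cannot decide on their fall in whole tissue. Among the rises Tra2a (0.21), Hcn4 (0.10) and Ankrd26 (0.02) were smaller in the pulldowns than in whole tissue, and these differences between the kinds of library were not tested.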

How the data were processed

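Expression was measured by RNA-seq of whole epithelium homogenate (input) in 21 libraries, with pulldown libraries of the same pools set beside them. Per the labels and the study's methods, libraries were made with an amplifying cDNA kit (Ovation RNA-Seq V2) and Nextera XT and read in pairs of 75 bases, and the authors deposited estimated counts per gene from Salmon on GRCm38, of which 30.9% of values are not whole. Of 44674 gene IDs, 44118 were named from GENCODE M21 and 556 were not. The deposited expected counts were rounded to whole numbers, and 311 ribosomal RNA genes were removed before library sizes. Kits that amplify cDNA, and how much ribosomal RNA is left, can shift counts between short and long transcripts.

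Genes with enough counts (filterByExpr, minimum 10; 20444 kept) were tested with edgeR 4.0.16 in R 4.3.3 (TMM, robust quasi-likelihood, group terms for the 4 groups, Benjamini-Hochberg over all genes tested, threshold 0.001). Any odour is the mean of the 3 odour groups, and genes that differ among odours come from an F test of the 3. Shares were compared by two-sided exact permutation. Fits were tested on simulated data for any odour over 20444 genes, where 54 of 100 genes changed 1.5-fold and 70 of 100 changed 2-fold were recovered, with 1 wrong call. The simulated libraries held no split among the controls and no shift in composition, so wrong calls from either were not measured. No pair of libraries agreed within sampling noise. Alternatives were DESeq2 1.42.0, other size factors, filters and thresholds, a replicate block, each share as a covariate, leaving out each library and, chosen after seeing the data, removal of a length and GC trend or of genes like ribosomal RNA, and subsets of the controls.

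The comparison, the 35 gene lists and the rule for named genes were chosen with earlier results of these data known. Named are the 12 largest rises and 12 largest falls under each odour with at least 5 CPM, in each list the 3 called members of smallest p, and genes past the threshold under 1 odour or differing among odours. Others were named after their values were seen, and a few genes that the rule names are not reported here. The promoter windows are from RefSeq.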

Additional observations from a re-analysis of the deposited data

Results flagged for a closer look

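Of 620 groups of libraries examined gene by gene, 33 held a value far from the rest of its group, and chance alone gives about 1 in 20 such groups. Of these values 13 belonged to no odour 4. It was high for Omp (10670 CPM against a median of 8081 in the other four), Gng13 (978.4 against 571.1 CPM), Scgb1c1 (19130 against 10820 CPM), Mt2 (532.3 against 345.7 CPM), Apoe (337.7 against 219.6 CPM), Stmn1 (590.1 against 390.8 CPM) and Fabp7 (171.1 against 123.2 CPM). It was also high for Bnip3 (136.0 CPM), Krt18 (335.5 CPM), Dmp1 (19.84 CPM) and Igha (17.99 CPM), and low for Clock (76.66 against 104.8 CPM) and Arc (1.308 against 3.35 CPM). No odour 6 was low for Xbp1, at 90.08 CPM.

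With bacon odour, library 3 was high for the mitochondrial share (1.450% against a median of 0.9893% in the others), mt-Nd2 (598.4 against 408.9 CPM) and Slc24a4 (57.15 CPM), and low for Gnai2 (98.28 CPM) and Ier5 (61.77 CPM). Bacon 4 was high for Hsph1 (126.1 CPM) and bacon 5 low for Car6 (1.295 CPM). With HFD odour, library 2 was low for Ccl5 (1.242 CPM), Ddit3 (24.81 CPM) and Lcn4 (11.96 CPM), library 3 low for Hcn4 (23.79 CPM) and library 6 high for Acan (1.220 CPM). With NCD odour, library 1 was low for Hlf (278.9 CPM), library 2 low for Erbb3 (39.81 CPM) and high for Igha (14.77 CPM), library 3 high for Hspa1b (9.910 CPM) and low for Nr4a1 (51.58 CPM), library 5 low for Dbp (23.56 CPM) and library 6 high for Gnb1 (3722 CPM).

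The effect of odour differed among the 3 odours for 21 of the genes named (edgeR quasi-likelihood test among the odours). The adjusted p was 1.849e-09 for Ighg2c, 3.094e-09 for Acan and for Hspa1a, 8.972e-09 for Hspa1b and for Igha, 1.211e-08 for Crisp1, 4.35e-08 for Col10a1 and 5.195e-08 for Scgb1b27. It was 1.215e-07 for 2310057J18Rik, 4.134e-07 for Scgb2b27, 1.128e-06 for Cytl1, 4.718e-06 for Car6, 1.685e-05 for Pcdh10 and 1.787e-05 for Gm14743. The remaining values were 0.0001091 for Moxd2, 0.0002824 for Fosb, 0.0002882 for Hsph1, 0.0004875 for Obp1a, 0.0006732 for Dnajb1 and 0.0007883 for Galnt14 and for Obp1b, the last at 1807 CPM without odour, 1383 with NCD, 1228 with bacon and 2765 with HFD odour. Obp1a and Obp1b are close copies, and reads may be split between them.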

How the results depend on the processing

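Counts are given in the order any odour higher and lower, each of the 3 odours higher and lower, among odours, NCD, bacon and HFD odour, against 973, 1442, 51, 32, 33, 195, 2744 and 195. DESeq2 gave 1952, 2079, 434, 300, 162, 1364, 4387 and 1298, and an adjusted p of 0.05 gave 3468, 4075, 1495, 1475, 324, 4748, 8118 and 4353. Requiring a fold of at least 1.2 left 17, 36, 6, 0, and 12, 146 and 15 by odour. With the ribosomal RNA share in the model they were 7, 0, 3, 0, and 9, 4 and 4 by odour, and with the mitochondrial share 3, 0, 0, 0, and 4, 5 and 3. With no odour 4 and 6 alone they were 64, 206, 17 (each odour, higher), 57 among odours, and 63, 1112 and 83, and with no odour 1, 2 and 3 alone 869 (any odour, lower), 267, 120, 230, and 664 (NCD) and 694 (HFD). Removing the length and GC trend gave 88 (each odour, higher), 311 (NCD) and 367 (HFD), no filter beyond 1 count 89 and 295 (HFD), 2 groups in place of 4 gave 833 lower, and fitting only the compared groups 30, 758 and 6 by odour. Without 1 library the counts ran from 479 to 1518, 757 to 1705, 24 to 279, 10 to 160, 21 to 138, 70 to 824, 1331 to 3575 and 69 to 702, the differences in ribosomal RNA share from -13.1 to -10.9 and in mitochondrial share from -0.683 to -0.571 percentage points. For each of the 3 odours, leaving out no odour 6 gave 279 and 160. The cause of these moves was not tested.

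The replicate numbers did not pair the libraries: deviations from the group mean correlated at a median of 0.025 (-0.171 to 0.176) over 27 pairs with the same number and -0.003 over 138 others. The replicate block gave 410, 753, 19, 7, 21, 71, 1508 and 36. With the ribosomal RNA share in the model the log2 fold change changed sign for Apoe (0.15), Bglap (0.18), Bpifb3 (0.075), Bpifb4 (0.020), C1qa (0.085), Calb2 (0.0084), Ccdc40 (-0.039), Dcx (-0.014), Ddit4 (0.087), Gnal (-0.036), Gnb1 (0.061), Gng13 (0.32), Gng8 (0.19), Gsn (0.013), Hes6 (0.18), Mt1 (0.092), Mt2 (0.069), Nrp1 (-0.0072), Rpl22l1 (0.024), Slc17a6 (-0.0012), Slc24a4 (-0.020), Stmn1 (0.086), Tagln (0.030), Tsc22d3 (0.097) and Xbp1 (0.073), and with the mitochondrial share for mt-Nd2 (0.036) and mt-Nd4l (0.0099). The mitochondrial share is the sum of such mitochondrial messages, so the fit with it cannot test them. Over the named genes, fits without 1 library gave 2867 values on the same side of the threshold, 333 that lost it and 13 that gained it, with no change of sign.

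DESeq2's size factors, ribosomal RNA kept in library sizes, a minimum of 1 CPM in 5 libraries and removal of genes like ribosomal RNA moved none of these counts over 1.5 times. Genes under about 10 counts per library were not tested. With 5 libraries without odour, of 2 kinds by Ttr, Pcp4 and Mup5, a gene's call rests on how these 5 vary.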

Other observations

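Lars2, which encodes a mitochondrial leucyl-tRNA synthetase and holds a stretch like ribosomal RNA, stood at 46360 ± 11610 CPM without odour (SD, n = 5) and at 17350 CPM with odour, a log2 fold change of -1.46 that did not pass the threshold (edgeR, adjusted p = 0.0033). Long non-coding RNA genes took 2.93% of the counts outside ribosomal RNA without odour and 3.80% with odour (exact permutation of the libraries, two-sided p = 0.0159). The groups overlapped, from 1.95% (no odour 4) to 3.52% (no odour 6) without odour and from 2.90% to 4.87% with odour. Of the markers of other cells against which the tissue was checked, Ermn, a marker of supporting cells, had 195 and 222 CPM without and with odour, Krt5, a keratin of horizontal basal cells, 43 and 40 CPM, and Gap43, a growth protein of immature neurons, 161 and 134 CPM.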
